A study of Callithrix jacchus with 39 samples.

Results

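Colon and stomach of a New World monkey, the marmoset Callithrix jacchus, were compared by the chromatin marks called in each. The libraries were taken by their titles: 2 Colon and 2 Stomach libraries for H3K27ac, and 2 Colon and 2 Stomach libraries for H3K4me3. These 8 samples stand among 39 in the series, of which 31 are ChIP libraries with a peak list of their own and 8 are input samples that are not analysed here. Chromatin immunoprecipitation used the antibody ab4729 for H3K27ac and ab8580 for H3K4me3. The labels name the tissue, the mark and a replicate number, and they give no treatment, age, sex, genotype or segment of the gut. They do not say whether the numbers stand for different animals, so the p-values below measure only the spread between these samples, which may be technical.

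Where peaks of the 4 libraries of a mark overlapped they were merged, which gave a catalogue of 55140 H3K27ac regions and one of 25947 H3K4me3 regions. A region with a peak in both libraries of one tissue and in neither library of the other is called colon only or stomach only, and together these are the one-tissue regions. They were set against regions with a peak in all 4 libraries. The names describe this choice of libraries alone, and a region that is colon only here may carry the mark in any of the 6 further tissues of the series (heart, kidney, liver, pancreas, skeletal muscle and spleen), which serve as background.

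H3K27ac is an acetylation that marks active promoters and active enhancers. Many enhancers lie away from promoters, and many act in only some tissues. H3K4me3 is a methylation concentrated at promoters, the start sites of genes, many of which are active in nearly every tissue. The colon absorbs water and salts through an epithelium rich in mucus-secreting goblet cells, while the stomach carries a mucosa of acid-secreting, pepsinogen-secreting and mucous cells, and both sit on layers of smooth muscle. In such bulk samples, fewer cells of a type and less of a mark per cell cannot be told apart. Gene markers of either tissue were not examined, because no gene annotation of the calJac3 build of these peaks was used here, so the tissue labels rest on the titles.

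The 8 lists were of ordinary size for the series. H3K27ac lists of the 6 further tissues held from 24590 to 51554 peaks and H3K4me3 lists from 16386 to 24424. Read depth is unknown from peak lists, so no interval or floor is given and a missing peak means only that none was called. One library lay nearest to a library of the other tissue: the Colon 2 list of H3K4me3 had a Jaccard index (shared bases over all bases covered by either list) of 0.686 with Stomach 2, above its 0.660 with Colon 1. Colon 1 had the shortest of the 4 H3K4me3 lists, with 19355 peaks, and lower indices with Stomach 1 and Stomach 2, at 0.651 and 0.624. Which of the colon lists is the less typical of colon was not tested. Most comparisons that use the Colon 2 list of H3K4me3 are given below with and without it. The ranks among tissue pairs and the counts beside common regions were not recomputed. Neither were H3K27ac sharing split by H3K4me3, H3K27ac by tissue at H3K4me3 regions, and further-tissue H3K4me3 at regions without H3K27ac. Shares by distance over the catalogue, and other values given once, use all lists. In named regions the Colon 2 list has a value of its own.

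Colon held the longer H3K27ac maps. The H3K27ac lists numbered 40507 peaks in Colon 1, 35220 in Colon 2, 30803 in Stomach 1 and 31573 in Stomach 2. They covered 36.9, 28.5, 24.0 and 24.9 Mb in that order. Both colon libraries lay above both stomach libraries, and the colon libraries lay farther apart than the stomach libraries. Colon exceeded stomach by 6675.5 peaks (37863.5 ± 3738 against 31188 ± 544, SD, n = 2 each; two-sided exact permutation test, p = 0.333, adjusted p = 0.458 over 11 tests). The covered length was 8.24 Mb greater in colon (32.7 ± 5.95 against 24.4 ± 0.601 Mb, SD, n = 2 each; exact permutation test, p = 0.333, adjusted p = 0.458). With 2 libraries against 2 this test cannot go below 0.333.

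H3K4me3 maps did not separate the tissues by size. Their lists numbered 19355 and 22730 peaks in Colon 1 and Colon 2, and 21217 and 22504 peaks in Stomach 1 and Stomach 2. The highest and the lowest list were both from colon, so the groups overlapped. The mean differed by -818 peaks (colon 21042.5 ± 2386, stomach 21860.5 ± 910, SD, n = 2 each; exact permutation test, p = 1). Leaving out Colon 1 turned this to 869.5. Covered length was 18.3 and 25.6 Mb in colon against 20.4 and 22.8 Mb in stomach, a difference of 0.338 Mb that fell to -3.29 Mb without Colon 2 and to -0.856 Mb without Stomach 1, and rose to 3.97 Mb without Colon 1.

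H3K27ac maps resembled each other more within a tissue than across the tissues. The Jaccard index was 0.562 between the colon libraries and 0.580 between the stomach libraries. Across tissues it was 0.387 and 0.376 for Colon 1 with Stomach 1 and Stomach 2, and 0.449 and 0.447 for Colon 2 with the same libraries. Every pair of 1 tissue lay above every cross-tissue pair, and Colon 2 was nearer to stomach than Colon 1 was. The same-tissue mean exceeded the cross-tissue mean by 0.156 (exact permutation test over the 3 arrangements of 4 libraries, p = 0.333, adjusted p = 0.458). For H3K4me3 the colon pair stood at 0.660 and the stomach pair at 0.735, while the cross-tissue pairs were 0.651, 0.624, 0.658 and 0.686. The groups overlapped, and the excess was 0.0428 (exact permutation test, p = 0.333, adjusted p = 0.458). Without Colon 2 the excess was 0.0978, and over all libraries left out singly it ran down to 0.00478.

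Of the H3K27ac catalogue, 15116 regions (27.4%) had a peak in all 4 libraries. Colon only took 7576 regions (13.7%) and stomach only 3378 (6.13%). A further 22773 regions (41.3%) were found in 1 library, 10629 of them in Colon 1 alone, 5104 in Stomach 2 alone, 4002 in Stomach 1 alone and 3038 in Colon 2 alone. The rest had peaks in 3 libraries (4352 regions) or in 1 library of each tissue (1945 regions). Colon-only regions therefore outnumbered stomach-only regions 2.24 to 1, and this ratio moved with the length of the lists. With H3K27ac lists cut to equal length by strength it was 1.39 (5395 against 3874 regions), and restricting each list to its 20000 strongest peaks gave 1.31 (2927 against 2240). Leaving out a library, so that 1 library defines its tissue, gave 12752 colon-only regions without Colon 1 and 18900 without Colon 2, and 8940 stomach-only regions without Stomach 1 and 7879 without Stomach 2. The ratio was then 2.91 without Colon 1, 4.33 without Colon 2, 1.004 without Stomach 1 and 1.124 without Stomach 2, so it rose when a colon library was left out and came close to even when a stomach library was.

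The H3K4me3 catalogue was mostly common to the tissues. Regions in all 4 libraries numbered 14904 (57.4%), colon-only regions 879 (3.39%) and stomach-only regions 1050 (4.05%). Of the 5371 regions in 1 library, 2364 were in Colon 2 alone and 1669 in Stomach 2 alone. The pattern of Colon 2 with both stomach libraries but without Colon 1 held 1805 regions, against 95 for Colon 1 with both stomach libraries. Counts of one-tissue H3K4me3 regions rested on single libraries: without Colon 2 they were 1718 colon only and 2930 stomach only, and without Colon 1 they were 3347 and 1148. Stomach-only regions numbered 2826 without Stomach 1 and 1991 without Stomach 2. The bars of regions by pattern show this contrast between the marks.

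**Figure D1:**
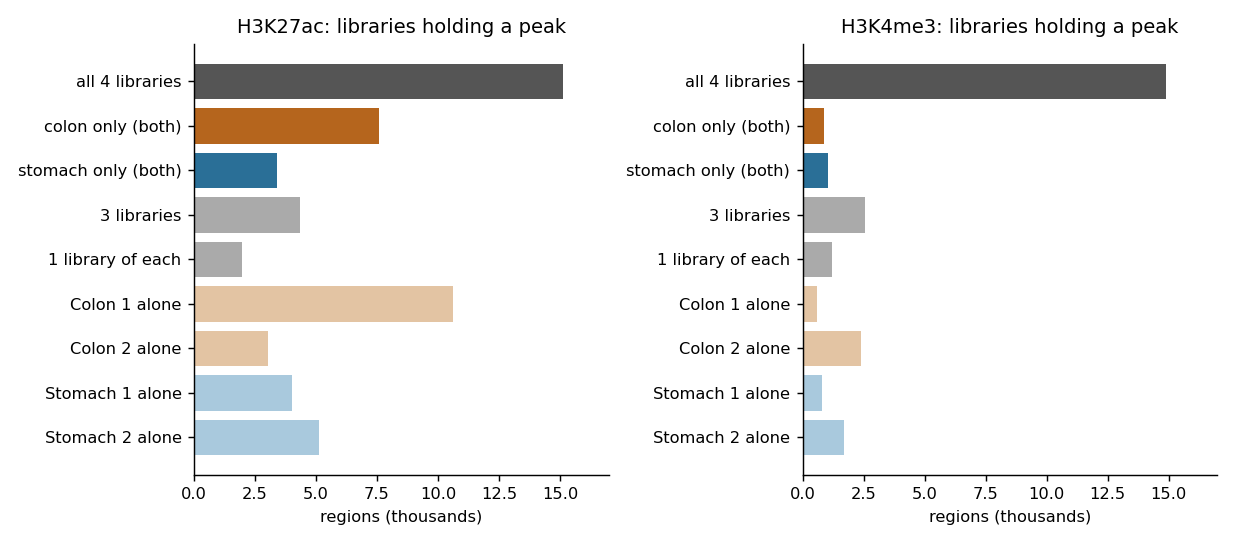
Number of catalogue regions (horizontal axis) by the libraries that hold a peak, for H3K27ac (left) and H3K4me3 (right). The bars for all 4 libraries are nearly equal, at 15116 and 14904 regions, while the one-tissue bars of H3K27ac, at 7576 and 3378 regions, are far longer than those of H3K4me3, at 879 and 1050.

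One-tissue H3K27ac regions seldom carried H3K4me3, whereas regions in all 4 libraries mostly did. Each H3K27ac library was scored on its own peaks, by overlap of at least 1 bp with an H3K4me3 peak of either library of the same tissue. Both libraries of a tissue hold peaks in the same class regions and were set against the same H3K4me3 lists. Their values here, and for length and distance below, are therefore not independent. Agreement between them, and so the SDs and p-values, partly follows from how the classes were made. Among one-tissue peaks the share with H3K4me3 was 15.9% in Colon 1, 14.9% in Colon 2, 24.0% in Stomach 1 and 24.5% in Stomach 2. Among peaks of regions in all 4 libraries it was 78.0%, 74.6%, 72.6% and 72.4%. The ranges did not overlap, and the one-tissue share was lower in 4 of 4 libraries. The difference was -54.6 ± 7.36 percentage points (SD, n = 4). The exact permutation test by sign flips, two-sided, gave p = 0.125 and adjusted p = 0.458, and 0.125 is the smallest p that 4 libraries allow. Without the Colon 2 list of H3K4me3 it was -54.0 points.

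Colon-only and stomach-only regions also stood apart from one another. The share of one-tissue peaks with H3K4me3 was 15.4 ± 0.688% in colon and 24.2 ± 0.377% in stomach (SD, n = 2 each), and both colon values lay below both stomach values. This difference of -8.83 points gave p = 0.333 in the two-sided exact permutation test (adjusted p = 0.458), the smallest possible. It was not stable to the choice of library: it was 3.47 points without the Stomach 1 list of H3K27ac, -5.13 without Stomach 2, -19.7 without Colon 2, and -9.07 without Colon 1. Without an H3K4me3 list it was -13.3 points (Colon 2) or -4.54 points (Stomach 2).

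Peaks of one-tissue regions were shorter. Their median length was 693 bp in Colon 1, 479.5 bp in Colon 2, 483 bp in Stomach 1 and 521 bp in Stomach 2. In regions of all 4 libraries the medians were 1052, 863, 793 and 795 bp. Within each of the 4 libraries the one-tissue median was the lower, and the difference was -332 ± 49.1 bp (SD, n = 4; exact permutation test by sign flips, p = 0.125, adjusted p = 0.458). Between the tissues, the one-tissue medians differed by 84.25 bp (colon 586.25 ± 151, stomach 502 ± 26.9 bp, SD, n = 2 each; exact permutation test, p = 1), less than the spread of the colon libraries. That difference was -57.5 bp without Colon 1 and -24 bp without Colon 2, and with the 20000 strongest peaks per list it was 284.75 bp.

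Length moved with peak strength. Strength is taken here as the authors' −log10 p, ranked within each list. The median percentile of one-tissue peaks was 48.8 in Colon 1, 34.8 in Colon 2, 33.9 in Stomach 1 and 37.9 in Stomach 2, against 75.1, 70.6, 67.6 and 68.0 for peaks of regions in all 4 libraries. One-tissue peaks were thus the weaker in every library, and their median percentile was highest in Colon 1. When each list was split into 4 equal bands of strength, a step added after the data were seen, the lengths of both classes came closer: medians ran from 364 to 388 bp against 363 to 372 bp in the weakest band, and from 1075 to 1463 bp against 1250 to 1501.5 bp in the strongest. Within libraries, the one-tissue median of the strongest band was still the shorter in every library. It was 1463 against 1501.5 bp in Colon 1, 1135 against 1286 bp in Colon 2, 1123.5 against 1250 bp in Stomach 1 and 1075 against 1252 bp in Stomach 2. In the weakest band it was the shorter in Colon 2 alone. The part of strength in the difference in length was not tested further.

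The gap in H3K4me3 remained at like strength and at like length. In the weakest band, 10.7 to 21.4% of one-tissue peaks overlapped H3K4me3 across the 4 libraries, against 38.2 to 55.4% for all-4 peaks. In the strongest band the ranges were 27.7 to 56.2% and 88.9 to 93.5%. That band held 39.4 to 50.1% of all-4 peaks but 4.01 to 13.6% of one-tissue peaks. Among peaks of 300 to 500 bp the shares were 11.7 to 22.9% and 50.3 to 63.0%, and among peaks of 1200 bp or more they were 20.6 to 52.1% and 83.5 to 89.5%. The ranges of the classes did not overlap in any of the 4 bands or of the 4 length groups. Without the Colon 2 list of H3K4me3 they did not overlap either, with 7.30 to 21.4% against 29.5 to 43.6% in the weakest band and 21.1 to 56.2% against 86.0 to 93.5% in the strongest.

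One-tissue H3K27ac regions lay farther from H3K4me3. More than 10 kb from any H3K4me3 peak of the 4 H3K4me3 libraries were 58.8% of one-tissue peaks in Colon 1, 59.2% in Colon 2, 52.2% in Stomach 1 and 52.0% in Stomach 2. For peaks of regions in all 4 libraries the shares were 11.8%, 12.9%, 12.4% and 12.6%. The excess was 43.1 ± 4.07 points, positive in 4 of 4 libraries (SD, n = 4; exact permutation test by sign flips, p = 0.125, adjusted p = 0.458). With the limit set at 50 kb the excess was 21.7 points, and without the Colon 2 list of H3K4me3 it was 44.8 points at 10 kb. The plot of overlap, length and distance by library shows the 4 libraries moving in parallel in all 3 measures.

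**Figure D2:**
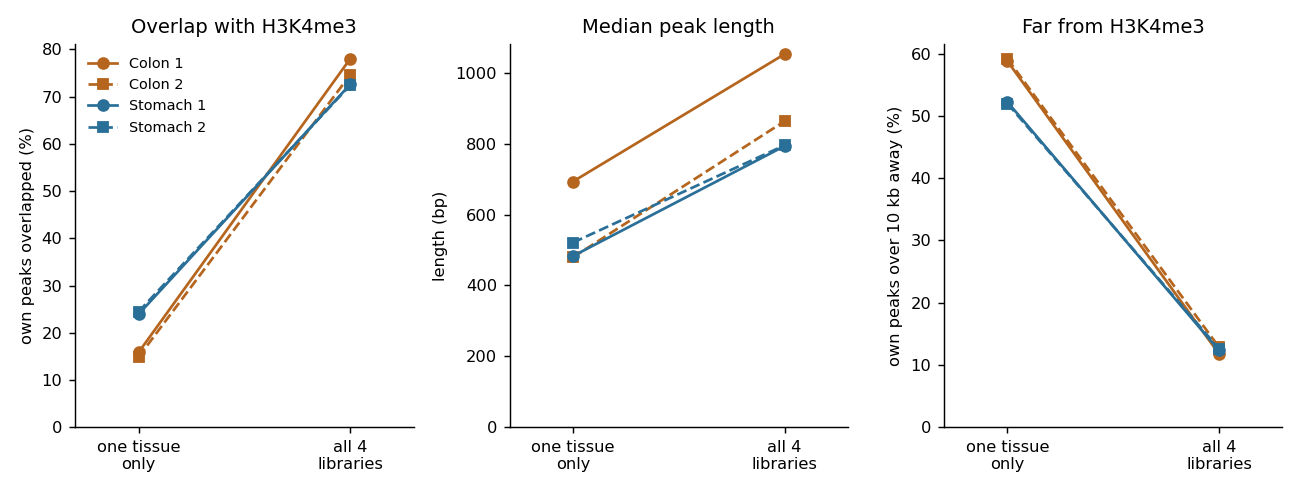
Own H3K27ac peaks of each library in one-tissue regions and in regions of all 4 libraries: share overlapped by H3K4me3 of the same tissue (%, left), median length (bp, middle) and share over 10 kb from H3K4me3 (%, right). Each line is 1 library; the left panel rises from 14.9 to 24.5% up to 72.4 to 78.0%, and the right panel falls from 52.0 to 59.2% down to 11.8 to 12.9%.

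Over the catalogue, where merged regions are counted once, 16.5% of colon-only regions overlapped an H3K4me3 peak of any of the 4 libraries, 24.9% lay within 10 kb of one without touching it, 31.2% between 10 and 50 kb, 14.6% between 50 and 100 kb and 12.9% beyond 100 kb. Stomach-only regions divided similarly outside the overlapping part, with 25.5%, 22.2%, 27.3%, 12.7% and 12.2%. Regions in all 4 libraries had 81.4% in overlap and 1.59% beyond 100 kb. Among regions without overlap the median distance was 25.4 kb for colon only, 24.98 kb for stomach only and 16.7 kb for all 4. Without the Colon 2 list of H3K4me3 these medians were 28.7, 27.7 and 17.7 kb. The cumulative curves by distance show the one-tissue classes close together and both well below the all-4 class.

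**Figure D3:**
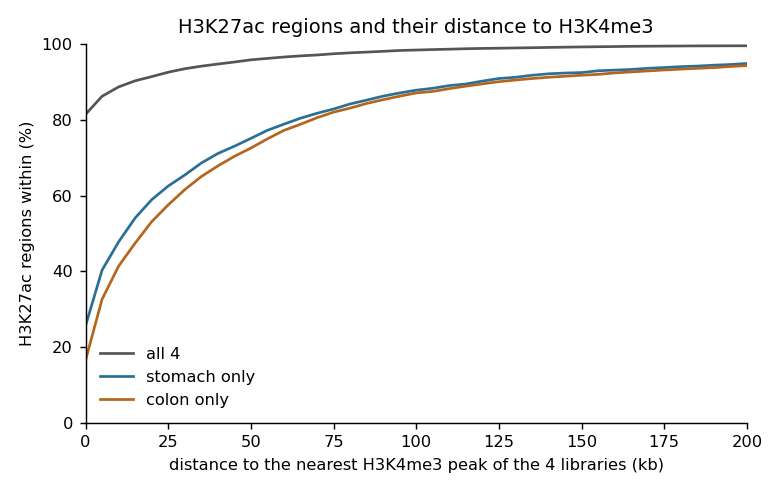
Cumulative share of H3K27ac catalogue regions (%, vertical axis) within a given distance (kb, horizontal axis) of the nearest H3K4me3 peak of the 4 libraries, for 7576 colon-only, 3378 stomach-only and 15116 all-4 regions. The curves start at the shares in direct overlap, 16.5%, 25.5% and 81.4%, and the colon-only and stomach-only curves then run close together.

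Most one-tissue H3K27ac regions met no H3K4me3, and the remainder divided between H3K4me3 of both tissues and H3K4me3 of one. Of the 7576 colon-only H3K27ac regions, 6328 (83.5%) met no H3K4me3 peak in the 4 libraries, 657 (8.67%) met it in colon alone, 570 (7.52%) in both tissues, and 21 (0.277%) in stomach alone. In 408 of them (5.39%) H3K4me3 was present in all 4 libraries. These were positions where all 4 H3K4me3 libraries had a peak while H3K27ac was called in colon alone. Of the 3378 stomach-only regions, 2515 (74.5%) met no H3K4me3, 301 (8.91%) met it in stomach alone, 529 (15.7%) in both tissues, 33 (0.977%) in colon alone, and 296 (8.76%) had it in all 4 libraries. With all lists, H3K4me3 of both tissues was thus less frequent than H3K4me3 of colon alone at colon-only regions, and more frequent than H3K4me3 of stomach alone at stomach-only regions. Both of these orders were reversed without the Colon 2 list of H3K4me3. Stomach-only regions then met H3K4me3 in both tissues in 320 cases and in stomach alone in 510. Colon-only regions met it in both in 497 and in colon alone in 381. Taking out a colon list can only lower the counts with H3K4me3 in colon. No other list was left out for this split, so a dependence on Colon 2 in particular was not tested. Of the 15116 regions acetylated in all 4 libraries, 11060 (73.2%) had H3K4me3 in all 4 as well and 2812 (18.6%) had none.

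Some of these regions lay close to a common one. The share over the other catalogue regions was not computed, so the values are a description. Within 2 kb of an H3K27ac region of all 4 libraries lay 966 colon-only regions (12.8%) and 432 stomach-only regions (12.8%). Among colon-only regions with H3K4me3 in all 4 libraries it was 97 of 408 (23.8%), and among the stomach-only ones 28 of 296 (9.46%).

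Regions of H3K4me3 in one tissue differed between colon and stomach in how often they were acetylated. This comparison was added after the data were seen. In each H3K4me3 library, own peaks were scored by overlap with an H3K27ac peak of either library of the same tissue. Among colon-only H3K4me3 regions the acetylated share was 78.4% in Colon 1 and 77.8% in Colon 2. Among stomach-only H3K4me3 regions it was 32.7% in Stomach 1 and 33.4% in Stomach 2. For H3K4me3 regions of all 4 libraries the shares were alike in the 4 libraries, at 86.3%, 86.0%, 85.3% and 85.0%. The difference between one-tissue classes was 45.01 points (78.1 ± 0.384 against 33.1 ± 0.491%, SD, n = 2 each; two-sided exact permutation test, p = 0.333, the smallest that 2 against 2 allows). Both libraries of a tissue were scored at the same regions against the same H3K27ac lists. Their values, and the peak lengths given below, are therefore not independent. The H3K27ac lists of colon were also the longer ones, and with lists of equal length the difference was 36.9 points. It was 25.8 points without the Colon 1 list of H3K4me3 and 34.3 points without Colon 2, and it kept its sign under every alternative run. The shares without Colon 2 were 73.5% in Colon 1, 39.0% in Stomach 1 and 39.4% in Stomach 2.

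Counted over the catalogue, 173 of 879 colon-only H3K4me3 regions (19.7%) met no H3K27ac in the 4 libraries and 404 (46.0%) met it in colon alone, while 282 (32.1%) met it in both tissues. Of the 1050 stomach-only H3K4me3 regions, 686 (65.3%) met none, 274 (26.1%) met it in stomach alone and 7.43% in both. The 6 further tissues separated these classes too. H3K4me3 was called in at least 1 library of those tissues at 49.4% of colon-only regions, at 87.5% of stomach-only regions and at 99.3% of regions in all 4 libraries. For stomach-only regions without H3K27ac it was 94.3% (647 of 686). So most H3K4me3 regions that were stomach only in the comparison with colon carried H3K4me3 in a further tissue. Without the Colon 2 list, H3K4me3 of a further tissue was found at 43.9% of colon-only and 93.5% of stomach-only regions, and 24.2% and 55.9% met no H3K27ac. Within 2 kb of an all-4 H3K4me3 region lay 22.5% of colon-only and 10.5% of stomach-only H3K4me3 regions. Without Colon 2 those shares were 29.2% and 18.8%. The share over the other H3K4me3 regions was not computed.

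One-tissue H3K4me3 peaks were short and weak within their lists. Their median length was 447.5 bp in Colon 1, 569.5 bp in Colon 2, 464 bp in Stomach 1 and 519.5 bp in Stomach 2, against 899, 1261, 990 and 1074 bp for peaks of regions in all 4 libraries. The difference, also added after the data were seen, was -555.9 ± 100.3 bp and negative in 4 of 4 libraries (SD, n = 4; exact sign-flip permutation test, p = 0.125). Their median strength percentile ran from 16.6 to 23.8, against 55.9 to 65.2. Without Colon 2 the difference in length was -516 bp, and the one-tissue medians were 383 bp in Colon 1, 493 bp in Stomach 1 and 559 bp in Stomach 2.

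Stomach-only H3K27ac regions were shared with other organs more than colon-only regions were. At least 1 of the 6 further tissues had an H3K27ac peak in both of its libraries at 25.4% of colon-only regions, at 55.4% of stomach-only regions and at 91.3% of regions in all 4 libraries. No H3K27ac peak in any library of the 6 tissues was found at 4402 colon-only regions (58.1%), 1004 stomach-only regions (29.7%) and 760 all-4 regions (5.03%). With a peak in either library of a tissue taken as enough, the shares with at least 1 tissue were 41.9% for colon only and 70.3% for stomach only. Regions that also met H3K4me3 were the more widely shared: 44.9% of colon-only and 79.5% of stomach-only regions with H3K4me3 were acetylated in at least 1 further tissue, against 21.5% and 47.2% of those without.

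By organ, stomach-only H3K27ac regions were found most often in pancreas. Both pancreas libraries were acetylated at 37.1% of stomach-only regions and at 6.65% of colon-only regions. Liver followed with 30.3% and 15.02%, and it was the tissue with the highest share of colon-only regions. Kidney had 21.3% and 7.07%, spleen 19.8% and 4.59%, heart 18.8% and 2.07%, and skeletal muscle 17.9% and 4.99%. The share was higher for stomach only than for colon only in all 6 tissues. For regions of all 4 libraries the shares were 66.6 to 82.7%, and pancreas was the highest there too, at 82.7%, followed by liver at 82.0%. These shares also move with the length of each tissue's lists, which differed. Liver and pancreas had the longest H3K27ac lists of the 6 tissues, with means of 48935.5 and 38059 peaks. For H3K4me3, the colon-only and stomach-only shares were 5.69% and 34.4% in heart (1 library), 11.9% and 37.4% in kidney, 14.8% and 35.0% in liver, 2.16% and 19.9% in pancreas, 2.28% and 20.9% in skeletal muscle, and 2.84% and 12.1% in spleen. Pancreas, first for stomach-only H3K27ac, was below heart, kidney and liver for stomach-only H3K4me3. Without the Colon 2 list of H3K4me3 the stomach-only shares were higher, from 26.0% in spleen and 32.0% in pancreas to 54.7% in liver, and the colon-only shares ran from 1.57% in pancreas to 13.2% in liver.

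**Figure D4:**
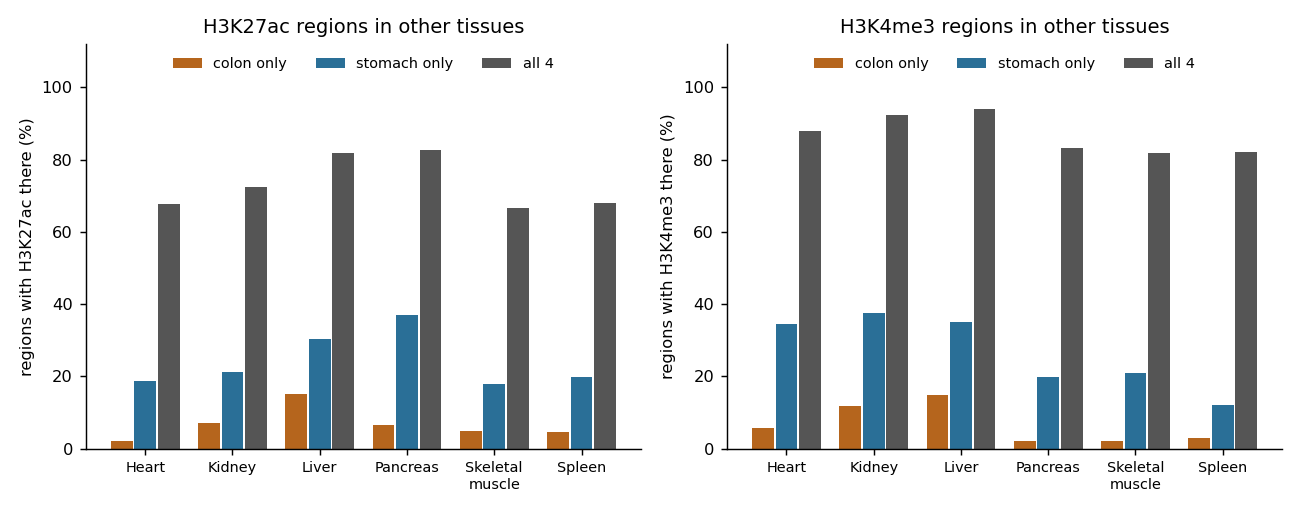
Share (%) of colon-only, stomach-only and all-4 regions that carry the same mark in both libraries of each further tissue (the 1 library for heart H3K4me3), for H3K27ac (left) and H3K4me3 (right). Stomach-only bars exceed colon-only bars in each of the 6 tissues and for both marks, with the tallest stomach-only H3K27ac bar in pancreas at 37.1%.

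Among the 28 pairs of tissues in the series, colon and stomach shared the most H3K27ac. The share of the pair's catalogue in all 4 libraries was 27.4%, the highest; the 27 other pairs ran from 15.2 to 24.9% with a median of 18.8%. Their one-tissue share of 19.9% ranked 21st, within a range of 15.9 to 33.6%. In H3K4me3, for which 21 pairs had 2 libraries of each tissue, colon and stomach ranked second, with 57.4% in all 4 libraries where other pairs ran from 43.5 to 60.5%. Pairs share libraries and differ in list length, so these ranks are a description.

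The gap in H3K4me3 between one-tissue and all-4 H3K27ac peaks was present in every pair. It was smallest for colon and stomach, at -54.6 points, where the other 27 pairs ran from -67.0 to -55.2. The next pair, heart and spleen, differed from colon and stomach by less than the spread of the 4 libraries (7.36 points, SD). The one-tissue end for colon and stomach was ordinary, with 19.8% against 15.8 to 25.7% in the other pairs. The all-4 end was the lowest of the series: 74.4% of all-4 peaks met H3K4me3, against 74.7 to 88.1% elsewhere with a median of 82.8%. The acetylated regions common to colon and stomach thus held the largest share without H3K4me3 among the pairs, although the next pair, liver and pancreas, differed from it by less than the spread of the 4 libraries (2.59 points, SD).

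One-tissue regions lay in runs along the chromosomes. Of the catalogue regions within 12 kb of a colon-only region, 29.5% (6000 of 20342) were themselves colon only, against the 13.7% of the catalogue that the class takes. Around stomach-only regions 22.9% (1884 of 8225) were stomach only, against 6.13%. These are ratios of 2.15 and 3.74. Regions of all 4 libraries lay beside their own class too, with 35.1% (10494 of 29904) against 27.4%, a ratio of 1.28. A smaller class can reach a higher ratio. A same-class neighbour was found for 49.2% of colon-only, 36.8% of stomach-only and 47.0% of all-4 regions. The opposite one-tissue class was scarce beside one-tissue regions. Stomach-only regions made up 1.49% of the neighbours of colon-only regions, and colon-only regions 3.68% of the neighbours of stomach-only regions. Regions of all 4 libraries were also fewer among the neighbours, 17.2% and 18.3% against 27.4%. Where 1 library defined the tissue, and the class was accordingly larger, the same-class share was 56.8% without Colon 1, 63.6% without Colon 2, 49.5% without Stomach 1 and 45.1% without Stomach 2. With neighbours taken within 50 kb it was 23.3% for colon and 15.4% for stomach.

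When same-class regions up to 12 kb apart were joined, the colon-only regions formed 5369 clusters, of which 453 held at least 3 regions and 54 at least 5. The largest held 13. Stomach-only regions formed 2662 clusters, with 133 of at least 3 and 10 of at least 5, and the largest held 7. Clusters of at least 3 held 21.0% of colon-only and 13.5% of stomach-only regions.

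The 5 clusters of each tissue with the greatest length covered by regions of the class show what these domains look like. They were picked for being restricted in H3K27ac, so the absence of H3K27ac in the opposite tissue is part of the choice, and H3K4me3 and the further tissues are the independent readouts. Positions are on calJac3, counted from 1, and values are kilobases covered by peaks within the cluster. The fifth and sixth clusters covered 9.39 and 9.33 kb in colon, and 5.98 and 5.78 kb in stomach.

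The colon-only cluster with the greatest covered length, C1, spanned chr6:114742720-114764439 with 6 regions. H3K27ac covered 15.6 kb in Colon 1 and 14.0 kb in Colon 2, and H3K4me3 covered 7.81 and 10.5 kb. In stomach H3K4me3 still covered 2.78 and 3.04 kb, so H3K4me3 was present in both tissues while acetylation was called in colon alone. H3K4me3 was found there in all 11 H3K4me3 libraries of the further tissues, and H3K27ac in both libraries of kidney and liver, at no more than 2.93 kb.

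C2, at chr5:108814664-108846687, and C4, at chr5:140930261-140948078, were acetylated in both libraries of no further tissue. C2, with H3K4me3 seen once each in skeletal muscle (0.945 kb) and spleen (0.300 kb), had 15.5 and 12.1 kb of H3K27ac in colon, 6.56 and 9.17 kb of H3K4me3, and no peak of either mark in stomach. C4 had 11.8 and 10.9 kb of H3K27ac in colon and 5.70 and 8.73 kb of H3K4me3, with 0.306 kb of H3K4me3 in Stomach 2 and none in Stomach 1. Single libraries of liver (0.443 kb) and pancreas (0.668 kb) had H3K27ac at C4.

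C3, at chr8:28485854-28552002, was the cluster of 13 regions. It carried 12.9 and 12.6 kb of H3K27ac and 5.80 and 10.4 kb of H3K4me3 in colon, against 0.775 and 0.778 kb of H3K4me3 in stomach. Skeletal muscle had as much H3K27ac there as colon, 12.7 and 12.6 kb, and kidney had 8.78 and 11.6 kb. Spleen had none, and heart and liver had a peak in 1 library each, of 0.381 and 0.386 kb. Pancreas had 1.67 and 0.327 kb. C5, at chr19:21592503-21609086, carried 10.9 and 8.52 kb of H3K27ac and 7.23 and 8.67 kb of H3K4me3 in colon, with 1.27 and 1.46 kb of H3K4me3 in stomach. Pancreas had 10.6 and 11.7 kb of H3K27ac at C5 and liver 6.84 and 6.87 kb.

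The stomach-only clusters had less length covered by regions of the class. S1, at chr16:51957135-51969638, had 8.82 kb of H3K27ac in Stomach 1 and 9.87 kb in Stomach 2, H3K4me3 over 2.41 and 2.77 kb, and no peak of either mark in colon. Outside the stomach, H3K27ac was called in pancreas alone, over 1.66 and 2.91 kb. S3, at chr3:184604732-184613871, was likewise free of both marks in colon. It carried 6.74 and 7.73 kb of H3K27ac and 2.42 and 2.87 kb of H3K4me3 in stomach, with H3K27ac in both libraries of pancreas (2.27 and 0.740 kb) and spleen (2.74 and 2.90 kb).

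The other stomach clusters kept H3K4me3 in colon. S2, at chr2:156270825-156289872, had 7.39 and 9.89 kb of H3K27ac and 4.25 and 7.12 kb of H3K4me3 in stomach, and 1.11 and 1.502 kb of H3K4me3 in colon. Pancreas was again the tissue with H3K27ac, over 2.51 and 1.83 kb. S4, at chr7:37328290-37336878, had 7.17 and 6.41 kb of H3K27ac and 5.64 and 6.21 kb of H3K4me3 in stomach, against 0.804 and 1.06 kb of H3K4me3 in colon. Pancreas covered nearly as much of S4 with H3K27ac, 5.77 and 6.24 kb, and kidney 4.70 and 5.62 kb. S5, at chr15:3409449-3426836, had 4.85 and 7.52 kb of H3K27ac in stomach, no H3K27ac in any further tissue, and H3K4me3 in all 11 further libraries. In colon H3K4me3 covered 1.16 and 3.69 kb of S5 and in stomach 3.08 and 4.08 kb, ranges that overlap. Of the 5 stomach clusters, 4 were acetylated in both pancreas libraries, against 2 of the 5 colon clusters. The share over all clusters of each class was not computed, so this count describes the picked clusters alone.

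**Figure D5:**
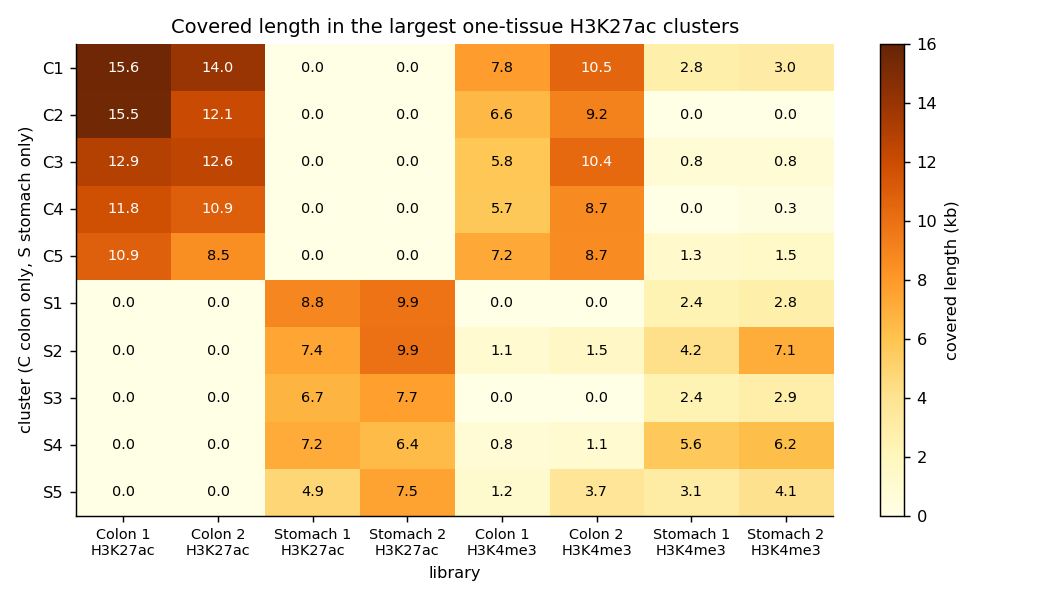
Kilobases covered by peaks (colour and number), by library and mark, in 5 colon-only clusters (C1 to C5) and 5 stomach-only clusters (S1 to S5). These are the clusters with the greatest length covered by regions of the class. The H3K27ac zeros of the opposite tissue follow from how clusters were picked; in the H3K4me3 columns, C1 and S5 keep the mark in both tissues while at C2, S1 and S3 it is called in 1 of the tissues alone.

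Few of the one-tissue H3K27ac regions were restricted in both marks together. A colon-only H3K27ac region overlapped a colon-only H3K4me3 region in 287 cases (3.79%), and the stomach count was 148 (4.38%). The share was larger among one-tissue H3K4me3 regions. Of 879 colon-only ones, 297 (33.8%) met H3K27ac in both colon libraries and in no stomach library. Of 1050 stomach-only ones, 159 (15.1%) met it in both stomach libraries and in no colon library. Without the Colon 2 list of H3K4me3 the overlap counts were 388 and 293, while the H3K4me3 classes grew to 1718 and 2930 regions. The longest H3K27ac region restricted in both marks in colon lay at chr7:60390909-60398616. It had 7.71 and 6.53 kb of H3K27ac and 1.86 and 2.85 kb of H3K4me3 in colon, and no peak of either mark in stomach or in any further library. The second lay inside C1, at chr6:114753263-114759002, and the third inside C4, at chr5:140931570-140936928, where H3K27ac covered 5.10 and 4.74 kb and H3K4me3 3.799 and 4.07 kb. In stomach the longest, chr16:51957135-51965146, was most of S1, and the third, chr7:37333670-37336878, was part of S4. The second, chr14:7033136-7039837, had 4.62 and 6.37 kb of H3K27ac and 3.20 and 4.43 kb of H3K4me3 in stomach, and no peak in colon or in the further tissues.

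The regions common to all 4 libraries with the greatest mean covered length were long in both tissues, which follows from the choice. Mean covered length was greater in colon than in stomach at each of them. At chr13:54348459-54358121 H3K27ac covered 9.36 and 8.22 kb in colon and 7.55 and 7.12 kb in stomach. At chr7:81029826-81038780 it covered 8.83 and 7.52 kb against 7.72 and 7.25 kb, and at chr4:36673468-36682877 8.93 and 7.86 kb against 7.47 and 6.75 kb. The first and the last were acetylated in both libraries of all 6 further tissues. At the middle one heart had no H3K27ac peak, while kidney covered 6.65 and 6.46 kb. H3K4me3 there covered 3.93 ± 1.62 kb in colon and 2.67 ± 0.26 kb in stomach (SD, n = 2 each).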

How the data were processed

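Peak lists in narrowPeak form were deposited by the authors, 1 per ChIP library and not pooled. Peak names carry the strings exts300, ll100000 and calJac3, per the file headers and names. Tools listed in the submitters' processing notes, without their role or order, are bedtools 2.26, MACS2 2.1.1.20160309, SAMtools 1.3.1 and Bowtie 1.1.2. The sources used here do not give how the inputs were used. The deposited −log10 p and −log10 q values ranked or filtered peaks within a list only. Deeper or better enriched libraries give longer lists.

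Scripts ran in Python 3.11.15 with pandas 2.3.3, scipy 1.17.1, numpy 2.4.6 and, for plots, matplotlib 3.10.9. Overlap meant at least 1 bp. Length, H3K4me3 and distance were scored on each library's own peaks, since merged regions grow with the number of libraries. Tests were exact and two-sided, with Benjamini-Hochberg adjustment over 11 comparisons. The code was tested on simulated data. Named regions were the 5 clusters per tissue with the greatest mean length covered by regions of the class, the 3 longest one-tissue regions with both marks, and the 3 longest regions of all 4 libraries, on assembled chromosomes. Members and lists were chosen with earlier results of these data known. Alternatives were a −log10 q minimum of 5, only the 20000 strongest peaks, equal list lengths, assembled chromosomes, 50% coverage, the central 300 bp, other distances, the mark in both libraries, a replicate block and leaving out each library. Lists of marker genes were not used, for want of a calJac3 annotation, and the gene tables here are of a different assembly.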

Additional observations from a re-analysis of the deposited data

How the results depend on the processing

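Peak lists have no depth, and tests of 2 libraries against 2 cannot pass the 0.05 threshold. The lower H3K4me3 overlap (-58.1 to -47.7 points), shorter length (-385 to -286.5 bp) and greater distance (21.7 to 45.2 points) of one-tissue H3K27ac peaks, and the acetylation gap between the H3K4me3 classes (25.8 to 52.0 points), and the shorter length of one-tissue H3K4me3 peaks (-592 to -508 bp), kept their direction under every alternative run. With each library left out in turn, counts ranged from 8859 to 18900 (H3K27ac colon only), 4363 to 8940 (stomach only), 1161 to 3347 (H3K4me3 colon only) and 1148 to 2930 (stomach only), since a class then rests on fewer libraries. The H3K4me3 difference in peak number ranged from -2505.5 to 869.5 and in covered length from -3.29 to 3.97 Mb. The H3K4me3 overlap of colon-only minus stomach-only peaks ranged from -19.7 to 3.47 points and their length difference from -57.5 to 190 bp. Same-class neighbours ranged from 31.2 to 63.6% (colon) and 23.7 to 49.5% (stomach), and sharing with the further tissues from 18.0 to 31.4% and 44.0 to 61.9% (H3K4me3: 43.9 to 62.2% and 77.1 to 93.5%). With the 20000 strongest peaks, the H3K27ac counts were 2927 and 2240, colon neighbours 26.1% and colon sharing 22.4% (H3K4me3: 53.3% and 89.54%). With equal list lengths, neighbours were 27.5% and 24.2% and sharing 22.1% and 52.4% (H3K4me3: 55.3% and 89.55%). With 50% coverage, colon neighbours were 28.0% and sharing 22.4% and 52.2%. Neighbours within 50 kb were 23.3% and 15.35%, and sharing by either library 41.9% and 70.3%. The cause of these shifts was not tested. Peak number was not recomputed where list length is fixed by the setting. Same-numbered libraries of the tissues deviated together little (correlation over regions 0.0272 for H3K27ac and 0.0382 for H3K4me3), and were not treated as pairs. The labels do not say whether they share an animal. With a replicate block the H3K27ac difference in peak number was 6675.5 again (exact permutation test, p = 0.5), and no other direction changed.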

Other observations

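The shares of the H3K27ac classes differed between chromosomes, in percentage points most of all the share in all 4 libraries. It was highest on chromosome 22 and lowest on chromosome 3. On chromosome 22, 43.1% of catalogue regions were found in all 4 libraries, 9.48% were colon only and 5.29% stomach only. On chromosome 3, 22.1% were found in all 4 libraries, 15.8% were colon only and 5.82% stomach only. Over the whole catalogue the shares were 27.4%, 13.7% and 6.13%. The number of colon-only regions per stomach-only region was 2.28 over the assembled chromosomes, and ran from 1.66 on chromosome 18 to 2.92 on chromosome 8, leaving aside chromosome Y, which held 3 colon-only regions and 1 stomach-only region. Sequences outside the assembled chromosomes held 2.19% of colon-only, 3.97% of stomach-only and 2.80% of all-4 regions.

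Across the 2503 windows of 1 Mb that held an H3K27ac region, colon-only regions occurred in 1788, stomach-only regions in 1348 and both classes in 1084. Regions of all 4 libraries occurred in 2092 windows. At least 5 colon-only regions and no stomach-only region were found in 196 windows, and the reverse in 19. The fullest windows held 31 colon-only and 13 stomach-only regions. Colon-only regions occurred without any region of all 4 libraries in 140 windows, and stomach-only regions in 120. These counts can share windows with one another and with those above.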
